A study of Mus musculus with 8 samples.

Results

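The Notch receptors Notch1, Notch2 and Notch3, the ligands Dll1, Dll3 and Jag1, the DNA-binding partner Rbpj and the targets Hes1, Hes5 and Hey1 were examined in RNA-seq of mouse dorsal cortex at E15.5 (E, embryonic day). They were chosen by gene symbol for their known place in the pathway, with earlier results of these data known. These 10 genes are 10 of the 23284 symbols in the count tables. All 10 were present and all 10 passed the filter on low counts, so none was lost before testing. The 8 libraries were 4 labelled WT and 4 labelled ErbB4 KO, each from the cortex of C57BL/6 embryos, with genotype WT or ErbB4 -/- and no treatment in either group. The study compared them to find genes whose expression depends on the receptor tyrosine kinase ErbB4, and the question here is whether the Notch genes are among them. Per the study's methods the meninges and ganglionic eminences were removed, and the lines were bred as homozygotes, so that WT and KO embryos came from separate matings. The study describes ErbB4 knockout mice as kept alive by ErbB4 expressed in the heart from the α-MHC promoter, and the labels give this transgene for neither group. Litters were not given in the sources used here, so p-values measure only the spread between these libraries, which may be partly technical.

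Notch signalling passes between touching cells. A ligand on one cell binds a receptor on its neighbour, the receptor is cut by an ADAM protease and then by γ-secretase, and its freed intracellular domain joins Rbpj on DNA to switch on Hes and Hey genes, which encode repressors. In embryonic cortex the pathway is known for keeping radial glia, the dividing stem cells of the ventricular zone, from turning into neurons, while cells on the way to a neuronal fate carry the ligand Dll1. ErbB4 and Notch receptors share the proteolytic step, since one splice form of ErbB4 is also released by γ-secretase.

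The libraries held 28205703 to 48871480 counted reads. Erbb4 itself was not lower in the libraries labelled KO, at 20.7 to 24.6 CPM (the share of a library's reads, scaled to a common total) against 8.99 to 25.3 in WT, with a log2 fold change of 0.28 (SE 0.23, edgeR adjusted p = 0.812). The 8.99 CPM was WT replicate 1, without which the log2 fold change was 0.06 (SE 0.11), and it was 0.48 without WT replicate 3, so the genotypes below are those of the labels. A count summed over a gene does not show which exons were read. WT replicate 1 stood apart from the other libraries on the first principal component (30.6% of the variance), and its deviation from them ran against transcript length (Spearman's rho -0.58 across genes, 0.038 to 0.22 in the other libraries). The female transcript Xist was at 983 to 1686 CPM in WT replicates 1 to 3 and at 2.70 to 3.82 in WT replicate 4 and the KO libraries, so sex pattern and genotype cannot be fully told apart. Results are therefore also given without WT replicate 1.

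The stretch of DNA upstream of Hes5 is shown because Hes5 is a classic Notch target, and that of Dll1 because Dll1 is the ligand made by cells leaving the progenitor state. Each is 250 bases ending just before a transcript start in the RefSeq table (build GRCm38.p6), and each matched the mm9 genome at 1 place, Hes5 at chr4:154334782-154335031 on the plus strand and Dll1 at chr17:15513897-15514146 on the minus strand. They are written 5′ to 3′ on the strand of the gene. Capitals mark TGGGAA, the core letters that Rbpj is known to bind, on either strand.
Hes5: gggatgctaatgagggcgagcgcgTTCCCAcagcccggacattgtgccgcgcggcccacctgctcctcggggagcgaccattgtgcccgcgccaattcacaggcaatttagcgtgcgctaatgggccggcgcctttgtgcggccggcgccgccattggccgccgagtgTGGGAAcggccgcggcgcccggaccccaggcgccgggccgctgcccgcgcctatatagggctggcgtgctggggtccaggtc
Dll1: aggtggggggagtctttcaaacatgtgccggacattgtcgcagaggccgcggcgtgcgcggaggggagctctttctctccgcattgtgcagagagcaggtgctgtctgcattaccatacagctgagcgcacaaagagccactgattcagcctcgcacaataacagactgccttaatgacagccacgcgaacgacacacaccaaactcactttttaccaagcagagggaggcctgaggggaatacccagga

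The Hes5 window held 2 copies of these letters, which began 226 and 82 bases before the transcript start, the farther one on the opposite strand. The Dll1 window shown held 0, as did a further Dll1 window at chr17:15512788-15513037, which lies downstream of it. In all 10 windows were found for 8 of the 10 members, Dll1 and Rbpj having more than 1 each. The members without a window were Hes1 and Hey1. The letters occurred in the windows of Hes5 and Rbpj. They occur in 21.6% of all 32851 windows of this length in the table. The letters CACNAG, an N-box that Hes repressors are known to bind, occurred on either strand of the windows of Notch1, Notch2 and Notch3 and in 36.7% of all windows, and no copy overlapped TGGGAA. A match of letters is a description of the window and not a measured binding site.

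No Notch member differed between KO and WT with an adjusted p under 0.05 in edgeR's quasi-likelihood test with Benjamini-Hochberg adjustment over the 14696 genes tested, where 4 genes did (0.0272%). DESeq2 also called 0 of the 10. At an unadjusted p under 0.05 there was 1 member, Hes1, against 5.53% of all genes (2.52% with a lower level in KO), and DESeq2 gave 2, against 5.1% of the genes it tested. All 10 log2 fold changes of KO over WT were below 0, from -0.24 for Hes1 to -0.02 for Notch1, with a median of -0.12. Among all tested genes 50.8% were below 0 and the median was -0.0022, while 15.3% lay at or below the members' median and 4.32% at or below Hes1. In 0 of the 10 did the libraries of the groups separate, which happened in 3.34% of all genes. With all libraries the 3 targets had the lowest values on this scale and Notch1, Notch2 and Rbpj lay closest to 0. That order held only in part without WT replicate 1. Hes1 at -0.23 and Hes5 at -0.16 were still the lowest, while Hey1 was at -0.11 and the receptors were at -0.11, -0.12 and -0.14. The median was then -0.12, with all 10 below 0 (50.6% of all genes) and 1 at an unadjusted p under 0.05 (5.93%). Leaving out each of the 8 libraries in turn gave 7 to 10 members below 0, medians of -0.18 to -0.07 and 0 to 4 members at an unadjusted p under 0.05, where the share of all genes ran from 2.9% to 9.4%. All of these are differences on the log2 scale from counts normalized by TMM, edgeR's scaling to a common library size.

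**Figure D1:**
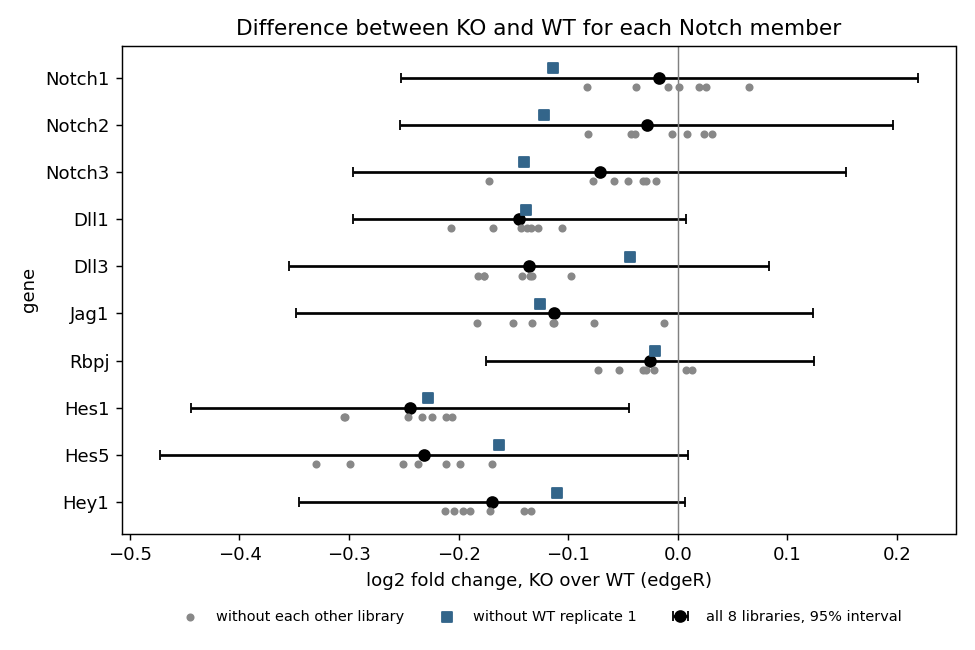
Log2 fold change of KO over WT (x axis, edgeR) for each Notch member (y axis), with black points and bars for the estimate from 8 libraries and its 95% interval, squares for the estimate without WT replicate 1 and small grey points for those without each other library. The estimates from 8 libraries all lie below 0, some leave-one-out estimates of Notch1, Notch2 and Rbpj lie above it, and the interval of Hes1, from -0.44 to -0.04, is the only one that does not reach 0.

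Levels were compared between genes after division by length, as CPM per kilobase of annotated exon. In WT Hes5 had the highest level, at 28.2 ± 3.38 CPM per kb (SD, n = 4), followed by Hey1 at 19.0 ± 1.65 and Dll1 at 15.9 ± 0.54. Their WT ranges did not overlap each other, nor did that of Dll1 overlap the next gene. Rbpj at 11.2 ± 0.822, Notch1 at 9.55 ± 1.57 and Hes1 at 9.46 ± 0.822 then followed, with ranges that overlapped between neighbours. Notch2 at 6.93 ± 1.04, Notch3 at 6.31 ± 0.69 and Dll3 at 6.02 ± 0.789 came next, below the range of Hes1, and the range of Notch3 overlapped those of both others. Jag1 had the lowest level, at 3.92 ± 0.202 CPM per kb, below the range of Dll3. The KO libraries gave the same order of means, from 23.97 ± 3.39 for Hes5 to 3.63 ± 0.564 for Jag1. The order also rests on this choice of length. By longest transcript Notch1 has 9488 bases rather than 14232, Hes1 1468 rather than 2037 and Dll1 3581 rather than 4219. With those lengths the WT ranges of Dll1 and Hey1 would overlap, and the WT means of Notch1 and Hes1 would lie above that of Rbpj. The trend of WT replicate 1 with length touches these comparisons between genes.

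**Figure D2:**
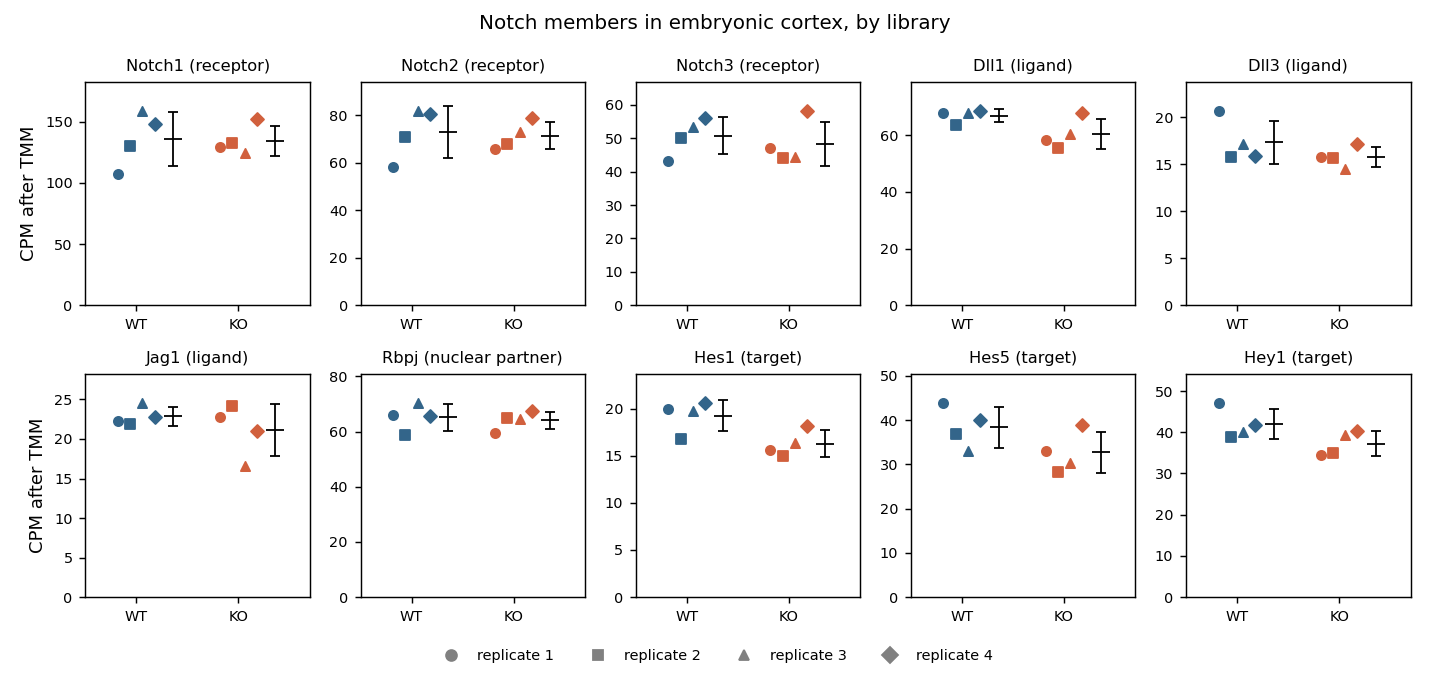
CPM after TMM normalization (y axis, from 0) of each Notch member in the 4 WT and 4 KO libraries (x axis), with a symbol for each replicate number and a bar for the mean and SD of a group. The groups overlap in all 10 genes, and in Hes1 3 WT libraries at 19.7 to 20.6 lie above all KO libraries.

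Hes1 and Hes5 encode the repressors by which Notch is known to hold back neuronal genes in progenitors, and Hey1 encodes a related repressor. Hes1, on chromosome 16 from 30064470 to 30067882 (mm9, plus strand), had 19.97, 16.8, 19.7 and 20.6 CPM in WT replicates 1 to 4 and 15.6, 14.96, 16.3 and 18.2 CPM in KO replicates 1 to 4. The low WT replicate 2 lay inside the KO range, and the other 3 WT libraries lay above every KO library. Mean Hes1 was 19.3 ± 1.67 CPM in WT and 16.3 ± 1.40 CPM in KO (SD, n = 4), a ratio of 0.845, from 521 to 769 reads per library. The log2 fold change was -0.24 (SE 0.091, 95% interval -0.44 to -0.04, unadjusted p = 0.0208, edgeR adjusted p = 0.81). Exact permutation of the group labels (70 arrangements, two-sided) gave p = 0.0571, and 4 against 4 libraries cannot go below 0.0286. Without WT replicate 1 the log2 fold change was -0.23 (edgeR adjusted p = 0.811), and over all 8 leave-one-out fits it ran from -0.30 to -0.21.

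Hes5, on chromosome 4 from 154335032 to 154336480 (mm9, plus strand), had 43.8, 36.8, 32.9 and 39.9 CPM in WT replicates 1 to 4. It had 33.0, 28.3, 30.4 and 39.0 CPM in KO replicates 1 to 4. KO replicates 1 and 4 lay inside the WT range, and WT replicates 2 and 3 lay inside the KO range, so the groups overlapped. Mean Hes5 was 38.4 ± 4.61 CPM in WT and 32.7 ± 4.62 CPM in KO (SD, n = 4). This is a difference of -0.23 on the log2 scale (SE 0.11, 95% interval -0.47 to 0.0091, edgeR adjusted p = 0.81; exact permutation p = 0.143). Leaving out 1 library gave values from -0.33 (without KO replicate 4) to -0.16 (without WT replicate 1), where KO replicate 4 had the highest Hes5 of the KO libraries and WT replicate 1 that of all libraries.

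Hey1, on chromosome 3 from 8663362 to 8667039 (mm9, minus strand), had 47.0, 38.7, 40.1 and 41.7 CPM in WT replicates 1 to 4 and 34.5, 34.98, 39.3 and 40.3 CPM in KO replicates 1 to 4. KO replicates 3 and 4 overlapped the WT libraries and KO replicates 1 and 2 lay below them. KO minus WT for Hey1 was -0.17 on the log2 scale (SE 0.081, 95% interval -0.35 to 0.0071, edgeR adjusted p = 0.81; exact permutation p = 0.143). Without WT replicate 1, the library with the highest Hey1, it was -0.11 (edgeR adjusted p = 0.811), smaller by over 1.5 times, and it was -0.21 without KO replicate 4.

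Dll1 is the main activating ligand on cortical cells that begin to differentiate, and Dll3 is a relative known for acting inside the cell that makes it rather than for activating Notch in neighbours. Dll1, on chromosome 17 from 15504318 to 15513836 (mm9, minus strand), had 67.8, 63.5, 67.9 and 68.4 CPM in WT replicates 1 to 4 and 58.4, 55.6, 60.4 and 67.9 CPM in KO replicates 1 to 4. KO replicates 1 to 3 lay below all WT libraries, and KO replicate 4 lay among them. KO minus WT for Dll1 was -0.14 on the log2 scale (SE 0.069, 95% interval -0.30 to 0.0074, edgeR adjusted p = 0.81; exact permutation p = 0.0857). It was -0.14 without WT replicate 1, and leaving out 1 library gave values from -0.21 (without KO replicate 4) to -0.11 (without KO replicate 2).

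Dll3, on chromosome 7 from 29076673 to 29087257 (mm9, minus strand), had 20.6, 15.8, 17.1 and 15.8 CPM in WT replicates 1 to 4 and 15.7, 15.7, 14.5 and 17.2 CPM in KO replicates 1 to 4. WT replicate 1 was alone in standing above all KO libraries. The log2 fold change of -0.14 (SE 0.10, edgeR adjusted p = 0.81; exact permutation p = 0.2) was -0.04 without that library and -0.18 without KO replicate 4. Jag1, a ligand of the other family, on chromosome 2 from 136907192 to 136942380 (mm9, minus strand), had 22.2, 21.9, 24.5 and 22.8 CPM in WT replicates 1 to 4 and 22.7, 24.2, 16.6 and 21.0 CPM in KO replicates 1 to 4. KO replicate 3 was low and the other KO libraries lay within or next to the narrow WT range. KO minus WT for Jag1 was -0.11 on the log2 scale (SE 0.11, edgeR adjusted p = 0.83; exact permutation p = 0.429), and it was -0.01 without KO replicate 3 and -0.18 without KO replicate 2.

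The receptors bind the ligands at the cell surface and carry the signal inward. Notch1, on chromosome 2 from 26313423 to 26372183 (mm9, minus strand), had 108, 130, 159 and 148 CPM in WT replicates 1 to 4 and 129, 132, 124 and 152 CPM in KO replicates 1 to 4. WT replicate 1 was the lowest of all libraries and WT replicate 3 the highest, so that the WT spread enclosed every KO library. The log2 fold change was -0.02 (SE 0.11, 95% interval -0.25 to 0.22, edgeR adjusted p = 0.98; exact permutation p = 0.971). It was -0.11 without WT replicate 1 (edgeR adjusted p = 0.82) and 0.07 without WT replicate 3 (edgeR adjusted p = 0.862), so its sign changed with the library left out.

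Notch2, on chromosome 3 from 97817461 to 97954290 (mm9, plus strand), had 58.2, 70.8, 81.7 and 80.7 CPM in WT replicates 1 to 4 and 66.0, 68.1, 73.1 and 78.9 CPM in KO replicates 1 to 4. Its log2 fold change was -0.03 (SE 0.10, 95% interval -0.25 to 0.20, edgeR adjusted p = 0.96) and -0.12 without WT replicate 1, again the lowest library, and 0.03 without WT replicate 3. The Notch2 values of all KO libraries lay inside the WT range. Notch3, on chromosome 17 from 32257765 to 32303825 (mm9, minus strand) and known from mural cells of vessels as well as from progenitors, had 43.3, 50.2, 53.5 and 56.1 CPM in WT replicates 1 to 4. In KO replicates 1 to 4 it had 47.0, 44.1, 44.4 and 58.1 CPM. The lowest of all 8 libraries was a WT library and the highest a KO library, and the difference was -0.07 on the log2 scale (SE 0.10, edgeR adjusted p = 0.877; exact permutation p = 0.571). Without WT replicate 1 it was -0.14 (edgeR adjusted p = 0.813), and over all leave-one-out fits it ran from -0.17 (without KO replicate 4) to -0.02 (without WT replicate 4).

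Rbpj, the DNA-binding protein on which all the receptors converge, lies on chromosome 5 from 53947018 to 54048684 (mm9, plus strand). It had 65.9, 58.7, 70.3 and 65.8 CPM in WT replicates 1 to 4 and 59.7, 64.8, 64.5 and 67.3 CPM in KO replicates 1 to 4. The WT range enclosed all KO libraries. KO minus WT for Rbpj was -0.03 on the log2 scale (SE 0.068, 95% interval -0.18 to 0.12, edgeR adjusted p = 0.943; exact permutation p = 0.743), the narrowest interval among the members, and it was -0.02 without WT replicate 1. The libraries were not strand-specific, and the annotation places exons of another gene on the opposite strand over exons of Notch1, Notch3, Dll1 and Hes5, whose reads cannot be told apart from theirs.

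**Figure D3:**
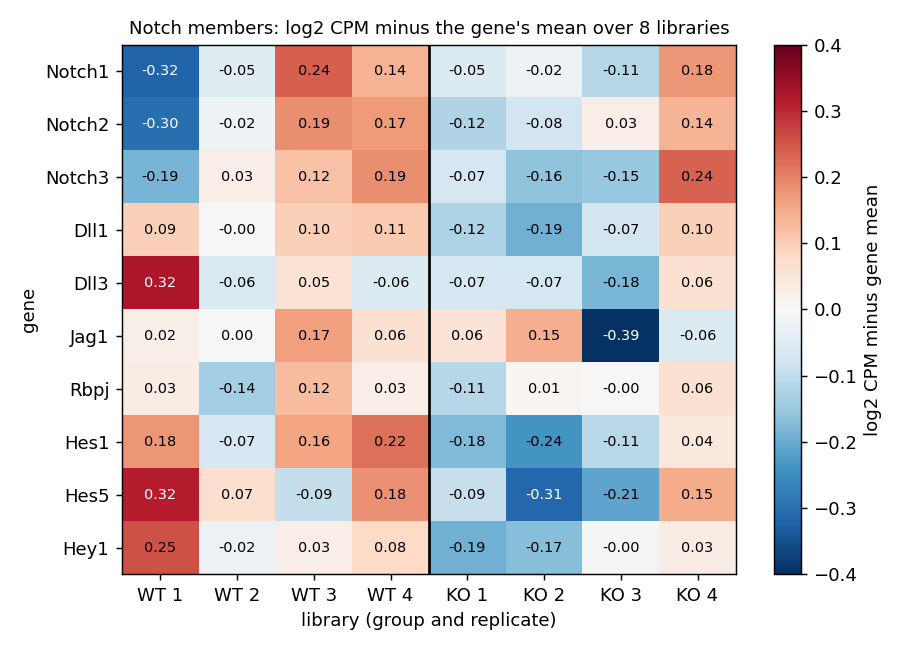
Log2 CPM of each Notch member (rows) in each library (columns) minus the mean of that gene over the 8 libraries, with red above and blue below the mean. KO replicate 4 is above the mean in 9 of 10 genes and KO replicates 1 to 3 in 1 or 2, while WT replicate 1 is at -0.32 for Notch1 and at 0.32 for Dll3.

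Libraries differed in the members as a set. KO replicate 4 was above the gene's mean in 9 of the 10 members, with a median deviation of 0.08 on the log2 scale. KO replicates 1, 2 and 3 were above it in 1, 2 and 1, with medians of -0.10, -0.12 and -0.11. WT replicates 1 to 4 were above it in 7, 3, 9 and 9, with medians of 0.06, -0.02, 0.12 and 0.12. The median of KO replicate 4 thus lay within the WT range, and the medians of the other KO libraries lay below those of all WT libraries. Since KO replicate 4 was singled out for its values in these same genes, a lower KO mean without it follows from that choice. Without KO replicate 4 the members' median log2 fold change was -0.18, and 4 members had an unadjusted p under 0.05 (Dll1, Hes1, Hes5 and Hey1), against 7.73% of all genes in that fit, with 0 passing the adjusted threshold. All 10 were then below 0, against 52.3% of all genes. Without WT replicate 2 the median was -0.15, 3 members had an unadjusted p under 0.05 (9.4% of all genes), and all 10 were below 0 (49.5%). Other exclusions went the opposite way, with 0 members at an unadjusted p under 0.05 without WT replicate 4, KO replicate 1 or KO replicate 2 (4.95%, 3.63% and 2.9% of all genes), and a median of -0.07 without KO replicate 3.

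WT replicate 1 split the members by transcript length. Relative to the mean of the other libraries it was at -0.37 for Notch1, -0.35 for Notch2 and -0.21 for Notch3 on the log2 scale, whose longest annotated transcripts have 9488, 10506 and 8044 bases. It was at 0.36 for Hes5, 0.37 for Dll3, 0.29 for Hey1 and 0.20 for Hes1, with transcripts of 1273, 2618, 2203 and 1468 bases. Across the 10 genes, which share this library, Spearman's rho with length was -0.903. In the other libraries it was -0.0545 to 0.758, the highest in WT replicate 3, with 0.648 in KO replicate 2. After a fit that offset each library's length trend, the receptors were at -0.10, -0.12 and -0.15, Hes1 was at -0.18, Hes5 at -0.16 and Hey1 at -0.13, and 0 members passed the adjusted threshold. The 3 targets then lay next to the receptors on this scale.

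KO replicate 4, the KO library with the most Notch members above their mean, was also the highest of the KO libraries in markers of progenitors. The 9 radial glia markers, from Pax6 and Nes to Vim and Fabp7, summed to 2234 to 2708 CPM in WT and 2286 to 2437 CPM in KO, where replicate 4 was the highest. Vim and Fabp7 were the most abundant, at 714 and 556 CPM in WT and 627 and 539 CPM in KO. Of the 9, 7 had a log2 fold change below 0, with a median of -0.08, 0 were called, and 3 (Pax6, Nes and Vim) had an unadjusted p under 0.05, against 5.53% of all genes. The other 2 lay above 0, Ptprz1 at 0.18 (SE 0.098) and Slc1a3 at 0.09 (SE 0.052). Pax6, a transcription factor of radial glia, had 112, 92.4, 104 and 97.8 CPM in WT replicates 1 to 4 and 77.2, 79.3, 85.4 and 95.5 CPM in KO replicates 1 to 4 (log2 fold change -0.27, SE 0.081, edgeR adjusted p = 0.81). Its KO replicate 4 lay within the WT range and the other KO libraries below it. Without WT replicate 1, the library with the highest Pax6, the log2 fold change was -0.22 (SE 0.072).

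The 7 intermediate progenitor and proneural markers, whose highest means over all 8 libraries were those of Eomes and Insm1 (276 and 193 CPM in WT, 253 and 209 CPM in KO), summed to 802 to 971 CPM in WT and 739 to 885 CPM in KO. Of them 6 had a log2 fold change below 0 (50.8% of all genes), with a median of -0.14, 0 were called and 3 (Neurog1, Neurog2 and Gadd45g) had an unadjusted p under 0.05 (5.53% of all genes). The proneural factor Neurog2, known to switch on Dll1, had 234, 179, 181 and 218 CPM in WT replicates 1 to 4 and 141, 137, 176 and 181 CPM in KO replicates 1 to 4 (log2 fold change -0.35, SE 0.11, edgeR adjusted p = 0.81; exact permutation p = 0.0857). Without WT replicate 1, the library with the highest Neurog2, it was -0.28 (SE 0.10). The 6 proliferation markers, led by Top2a and Mki67 (321 and 206 CPM in WT, 288 and 199 CPM in KO), summed to 752 to 994 CPM in WT and to 721 to 728 CPM in KO replicates 1 to 3, with 894 CPM in KO replicate 4. All 6 had a log2 fold change below 0, with a median of -0.19, 0 called and 1 (Mcm2) at an unadjusted p under 0.05, against the same shares of all genes. KO replicate 4 was thus the highest KO library in each of these sums as well as in every Notch member except Jag1. In bulk tissue, fewer progenitors and less RNA per progenitor cannot be told apart, and the part of these markers in the Notch values was not tested.

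**Figure D4:**
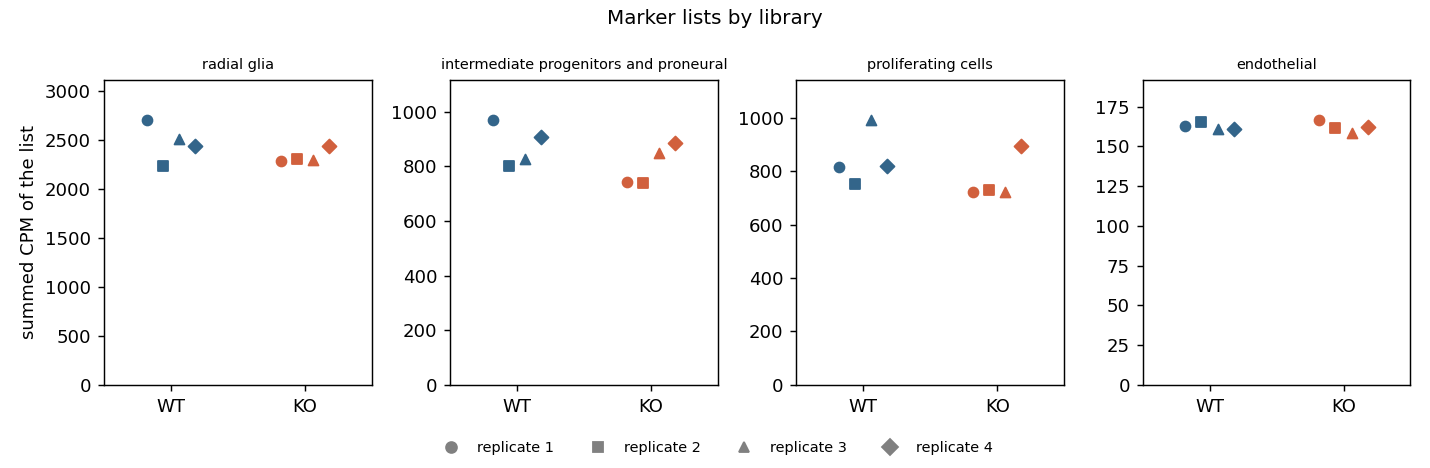
Summed CPM (y axis, from 0) of 4 marker lists in each WT and KO library (x axis), with a symbol for each replicate number. Of the KO libraries replicate 4 is the highest in the first 3 lists, while the endothelial sum stays between 158 and 167 CPM in all libraries.

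Other cells of the tissue also use Notch. The 8 endothelial markers, led by Cldn5 and Kdr (39.8 and 25.5 CPM in WT, 38.5 and 27.7 CPM in KO), summed to 161 to 165 CPM in WT and 158 to 167 CPM in KO, with a median log2 fold change of -0.0069. The 7 mural markers, led by Rgs5 and Abcc9 (35.6 and 19.1 CPM in WT, 29.1 and 21.3 CPM in KO), summed to 74.0 to 98.2 CPM in WT and 81.7 to 103 CPM in KO, with 5 of 7 above 0 and a median of 0.16. The neuronal markers, led by Dcx and Tubb3 (2320 and 2222 CPM in WT, 2563 and 2223 CPM in KO), summed to 9459 to 9546 CPM in WT and 9552 to 10072 CPM in KO, without overlap. Of its 9 genes 5 had a log2 fold change above 0 and the median was 0.00046. Interneuron and ganglionic eminence markers, led by Gad2 and Lhx6, summed to 468 to 636 CPM in WT and 458 to 645 CPM in KO (median -0.02 over 8 genes).

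Markers of meninges, microglia and blood were at low summed levels. The 6 meningeal markers summed to 8.50 to 10.1 CPM in WT and 8.80 to 14.2 CPM in KO. Of these, 2 (Lum and Aldh1a2) did not pass the filter, and the other 4 had a median of 0.04. Col1a2 and Dcn had the highest means over all 8 libraries. In WT alone Dcn and Foxc1 were highest, at 2.97 and 2.91 CPM, with Col1a2 at 2.48, and in KO Col1a2 was at 3.80, Foxc1 at 2.94 and Dcn at 2.90. The 6 microglia markers, led by Csf1r and Cx3cr1, summed to 39.5 to 49.3 CPM in WT and 41.7 to 48.5 CPM in KO (median 0.01). The 6 red blood cell markers, led by Hbb-y and Alas2, summed to 31.7 to 56.1 CPM in WT and 20.7 to 34.8 CPM in KO. Hba-a1 was at 0 in every library and Hbb-b1 had at most 1 read. The 4 that passed the filter had a median of -0.69, with 3 below 0. Of these, Hbb-y at -1.72 and Hba-x at -1.23 had an unadjusted p under 0.05 (edgeR adjusted p = 0.81 and 0.74), while Alas2 was at 0.21. Of the 68 genes tested in these 10 lists, 0 passed the adjusted threshold and 10 (14.7%) had an unadjusted p under 0.05, against 5.53% of all genes. The lists were chosen with earlier results of these data known, and their genes were read in the same 8 libraries. The 2 shares are therefore a description and not a test.

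**Figure D5:**
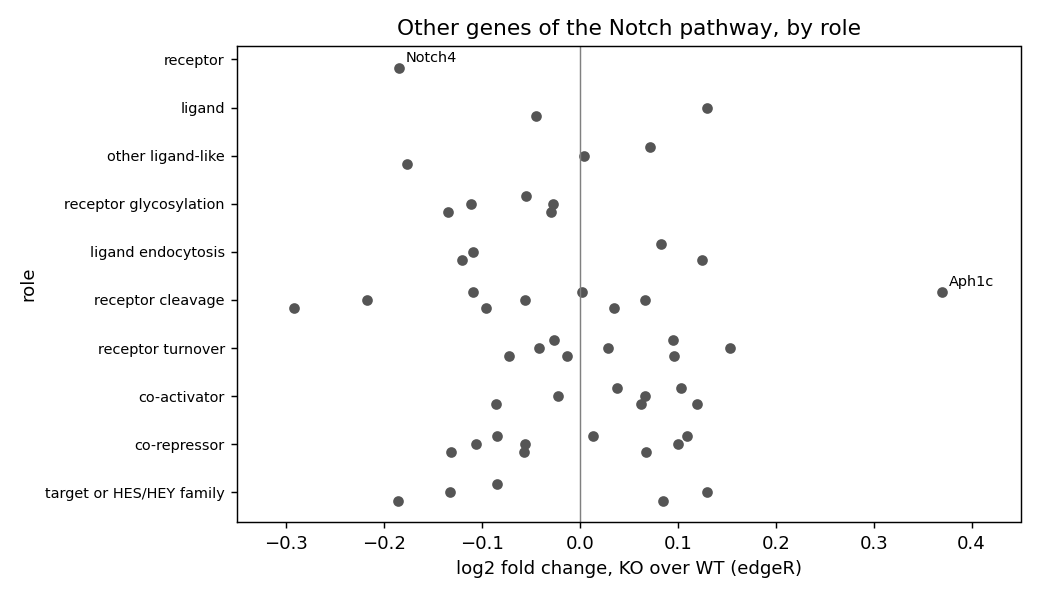
Log2 fold change of KO over WT (x axis, edgeR) of the 53 other Notch pathway genes that passed the filter, one point a gene, by role in the pathway (y axis), with names for the 2 genes at an unadjusted p under 0.05. The points lie on both sides of 0 in most roles, and all 5 receptor glycosylation genes lie below it.

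A list of 55 other genes of the pathway was examined in the same fit. Of these 53 passed the filter, and Hes2 and Hes3 did not, with at most 2 reads in any library. In edgeR's test 0 of the 53 had an adjusted p under 0.05, as with DESeq2, and 2 (3.77%) had an unadjusted p under 0.05, against 5.53% of all genes. The groups did not overlap in 2 (3.77%), Notch4 and Fbxw7, against 3.34% of all genes. Of the 53, 24 had a log2 fold change above 0 and 29 below it, with a median of -0.03. Without WT replicate 1 the split was 15 above and 38 below 0 (50.6% of all genes were below), with a median of -0.04, 5 at an unadjusted p under 0.05 (5.93% of all genes) and 0 called. Over the 8 leave-one-out fits the count at an unadjusted p under 0.05 ran from 0 to 5.

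Notch4, the receptor known from blood vessels, had 12.98, 12.6, 11.9 and 13.3 CPM in WT replicates 1 to 4 and 11.3, 10.9, 10.9 and 11.6 CPM in KO replicates 1 to 4. Every KO library lay below every WT library (exact permutation p = 0.0286, the smallest possible), which 1.48% of all genes showed. The log2 fold change was -0.19 (SE 0.078, edgeR adjusted p = 0.81). The endothelial sum overlapped between the groups, and of its 8 genes 4 lay above 0 and 4 below it. Those below included Tie1 at -0.13 (SE 0.074) and Esam at -0.11 (SE 0.077). The part of endothelial cells in the Notch4 value was not tested. Aph1c, a γ-secretase subunit, was at 3.79 ± 0.597 CPM in WT and 4.89 ± 0.427 CPM in KO (SD, n = 4; log2 fold change 0.37, SE 0.14, edgeR adjusted p = 0.81). Aph1b, a near-identical copy of it, stood at -0.22 on that scale (SE 0.18) and at -0.09 to -0.35 with a library left out, and how reads were divided between both is not stated, so each is uncertain.

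Of the 9 genes of receptor cleavage, 4 lay above 0 and 5 below it. Psenen, a further γ-secretase subunit, had the lowest log2 fold change of the list, at -0.29 (SE 0.17, edgeR adjusted p = 0.81), with 4.81 ± 1.21 CPM in WT and 3.92 ± 0.411 CPM in KO (SD, n = 4). It rested on WT replicate 1, at 6.49 CPM, and was -0.12 (SE 0.14) without that library, where Aph1b at -0.35 was lower. Adam17, a protease that cuts ErbB4 as well as Notch, was at -0.06 (SE 0.072, edgeR adjusted p = 0.863), and at -0.09 to -0.01 with a library left out. The enzymes that add sugars to the receptors (Pofut1, Poglut1, Lfng, Mfng and Rfng) were all 5 below 0, from -0.13 to -0.03, with 0 called.

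Hes6, a relative of Hes1 known to oppose it in differentiating cells, had 161, 121, 116 and 133 CPM in WT replicates 1 to 4 and 112, 112, 116 and 125 CPM in KO replicates 1 to 4. Its log2 fold change was -0.19 (SE 0.093, edgeR adjusted p = 0.81), and the groups overlapped. Without WT replicate 1, the highest library, it was -0.08 (SE 0.058). The feedback target Nrarp was at -0.09 (SE 0.079; -0.15 to -0.03 with a library left out), Hey2 at -0.13 (SE 0.15; -0.21 to 0.04 with a library left out) and Heyl, at the upper end, at 0.13 (SE 0.094). Dtx4, a ubiquitin ligase of the pathway, was at 0.15 (SE 0.075) with 83.7 ± 7.75 CPM in WT and 93.0 ± 6.21 CPM in KO, and the ligand Jag2 at 0.13 (SE 0.13). With a library left out Dtx4 ran from 0.10 to 0.21 and Jag2 from 0.05 to 0.23. The edgeR adjusted p of these 5 ran from 0.81 to 0.846. Fbxw7, which marks the cut receptor for destruction and was singled out after its values were seen, had groups that did not overlap, at 63.2 to 67.7 CPM in WT and 68.4 to 72.0 CPM in KO (log2 fold change 0.10, SE 0.055, edgeR adjusted p = 0.81).

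Genes nearest in pattern to Hes1 and Hes5 were sought by the root mean square difference of log2 CPM, each gene centred on its own mean over the 8 libraries. For Hes1 they were Jun (0.04), Tead2 (0.0429), Prkd1 (0.0435) and Plk1 (0.0471), against a median of 0.207 over all tested genes. For Hes5 they were Sox3 (0.0483), Gtf2h4 (0.0726), Trip6 (0.0733) and Mif4gd (0.0791), against a median of 0.238. Hes1 and Hes5 were 0.13 apart by the same measure, and Hes5 ranked 1302 among the genes nearest to Hes1, where Dll1 ranked 32 and Hey1 ranked 123. In WT replicate 3 Hes1 was at 0.16 above and Hes5 at -0.09, below, their means on the log2 scale.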

How the data were processed

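RNA of dorsal cortex was sequenced in 4 WT and 4 ErbB4 KO libraries. The authors prepared non-strand-specific polyA-selected libraries, used HISAT to map the single-end reads (mm9) and HTSeq to count them, and deposited raw counts per gene symbol, 1 table per library. Tool versions and the gene annotation are not given in the sources used here. The deposited DESeq2 table, with the authors' fold changes and p-values, was not used.

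The count test was edgeR's quasi-likelihood test (version 4.0.16, R 4.3.3) with genotype as the only term. TMM factors were 0.994 to 1.01, and filterByExpr ran with a minimum count of 10 and total of 15. P-values were adjusted over the 14696 genes kept, with a threshold of 0.05. CPM are TMM-normalized and log2 CPM have a prior count of 2. Single values were also tested with an exact two-sided permutation test. Alternatives were DESeq2 1.42.0, RLE normalization, no filter, a replicate block, an Xist covariate, a transcript length offset, a prior count of 0.5 and each library left out. GENCODE models for mm9 gave positions and lengths by symbol, and RefSeq the promoter windows.

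Named genes were the members, Erbb4, Xist, Ddx3y, and of the wider list those called, the 4 highest and 4 lowest log2 fold changes and those that failed the filter, with the 4 genes nearest to Hes1 and Hes5 and the 2 most abundant of each marker list. Pax6, Nes, Neurog1, Neurog2, Gadd45g, Mcm2, Adam17, Nrarp, Hey2, Fbxw7, Pofut1, Poglut1, Lfng, Mfng and Rfng, and Hba-a1, Lum and Aldh1a2 as markers at 0 or under the filter, fall outside this rule and were named after their values were seen. Tie1, Esam, Hba-x, Hbb-b1, Foxc1, Ptprz1 and Slc1a3 also fall outside the rule and were named after their values were seen. The members and lists were chosen with earlier results of these data known.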

Additional observations from a re-analysis of the deposited data

Results flagged for a closer look

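In 62 groups of 4 libraries the highest or lowest value was compared with the rest, and 8 stood apart by Dixon's criterion, which chance gives in about 1 in 20 groups. Among the members it was Dll1 in WT replicate 2, at 63.5 CPM against 67.8 to 68.4 in the other WT libraries. In the wider pathway, Psenen was at 3.30 CPM in KO replicate 3 against 4.11 to 4.14 in the other KO libraries, and Aph1c was at 4.25 CPM in KO replicate 2 against 5.08 to 5.13. KO replicate 4 stood apart in the summed radial glia markers, at 2437 CPM against 2286 to 2301, and in the summed proliferation markers, at 894 CPM against 721 to 728. WT replicate 4 stood apart in the summed neuronal markers, at 9546 CPM against 9459 to 9468, and in the Y-linked gene Ddx3y, at 76.4 CPM against 0.257 to 0.495. WT replicate 1 stood apart in the summed mural markers, at 74.0 CPM against 94.4 to 98.2.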

How the results depend on the processing

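Over 14 alternatives for each of 10 members, 131 of 140 log2 fold changes stayed below 0, none had an adjusted p under 0.05 (lowest 0.431), and 9 were above 0. Those 9 were leave-one-out fits of Notch1 (leave-one-out range -0.11 to 0.066, above 0 without WT replicate 3 or 4 or KO replicate 1 or 3), Notch2 (-0.12 to 0.032, above 0 without WT replicate 3 or 4 or KO replicate 1) and Rbpj (-0.072 to 0.013, above 0 without WT replicate 3 or KO replicate 1). No member and no wider pathway gene was called under any alternative. The number of genes called over all genes was 4, and it was 1 with RLE normalization, 23 with DESeq2, 1 with the replicate block, 1 with the Xist covariate, 2 with the length offset and 1 to 13 with a library left out (13 without WT replicate 4, 6 without WT replicate 1, 2 without WT replicate 2 or KO replicate 4, 1 without any other); the cause was not tested. Same-numbered libraries deviated together with correlations of 0.0236 to 0.135, and 5 of 8 correlated best with their own number. These values do not exclude a pairing. The sources used tie the numbers to no litter or day, so the main test did not treat them as pairs. The replicate block gave 3 members at an unadjusted p under 0.05 (6.97% of all genes), against 1 without it. With the Xist covariate Hes1 was at -0.34 (SE 0.15), Dll3 at -0.02 (SE 0.16), Notch1 at -0.11 (SE 0.18), Notch2 at -0.15 (SE 0.16) and Notch3 at -0.19 (SE 0.16). Of the WT libraries only replicate 4 had low Xist, as the KO libraries did, so this fit rests largely on that library. A prior count of 0.5 changed no exact permutation p of a member. The members had 492 to 6380 reads per library, and SEs of 0.068 to 0.11 on the log2 scale in the main fit limit which differences 4 libraries a group can show.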
